A study of Triticum aestivum with 4 samples.

Results

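The difference between the wheat cultivars Luohan No.2 and Chinese Spring was described in seedling roots that had been kept in tap water. It rests on 1 array of Luohan No.2 roots in water and 1 array of Chinese Spring roots in water. Members were chosen by signal: after quantile normalisation of both arrays, a probe set was kept when its normalised signal was 100 or more on at least 1 of them, which 15068 of 61115 probe sets reached (24.7%). The plants were common wheat (Triticum aestivum) seedlings at the 2-leaf stage, raised in dishes of water at 25 °C with a 14 h photoperiod. Another pair of arrays held roots of Luohan No.2 and of Chinese Spring after 6 h in a polyethylene glycol (PEG) solution of -0.49 MPa, and is used here only as a second look at the same cultivar difference. With 1 array a side there was no spread between plants and no test, and the labels do not say how many seedlings entered a sample. Differences are log2(Luohan No.2/Chinese Spring) after signals under 25 were set to 25, so a positive value means higher in Luohan No.2 and a difference with 1 side under 25 is a lower bound.

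Common wheat is hexaploid, and most of its genes occur as closely related copies, the homoeologues, on the genomes inherited from its ancestors. Chinese Spring is the landrace whose genome serves as the wheat reference, while cultivars differ from it by sequence variants, missing genes and introgressions. An Affymetrix probe set is a group of short oligonucleotides for 1 transcript, and its signal depends both on the amount of that transcript and on how well its sequence pairs with the probes. A cultivar difference in signal therefore holds transcript level and sequence together, and on these arrays they cannot be told apart. Roots carry few chloroplasts, take up mineral nutrients and release compounds such as phytosiderophores and defence chemicals into the soil.

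As deposited, 13349 probe sets reached a signal of 100 in Luohan No.2 in water and 13053 in PEG, against 13729 and 13464 in Chinese Spring. The median deposited signal was lower for Luohan No.2, at 13.5 in water and 13.9 in PEG, against 20.3 and 20.2 for Chinese Spring. The sucrose synthase control, whose 5' to 3' ratio reflects the integrity of the labelled RNA, had a ratio of 0.0554 for Luohan No.2 against 0.0805 for Chinese Spring in water, and 0.0216 against 0.0693 in PEG. For the glucose-6-phosphate dehydrogenase control the ratios were close in water, at 0.375 against 0.39, and 0.243 against 0.388 in PEG. The ubiquitin control had 2.45 against 3.5 in water, and 1.59 against 2.73 in PEG. Of the root markers, TaDMAS1, the enzyme of deoxymugineic acid synthesis by which grass roots take up iron, had a signal of 413.0 in Luohan No.2, against 322.8 in Chinese Spring in water. Its 3 probe sets had log2 differences from -0.07 to 0.36. The other root marker, TaALMT1, was near the floor, at 27.0 in Luohan No.2, against 23.6 in Chinese Spring. The dividing root tip markers H2A-3, a histone gene, and TUBA, an alpha-tubulin gene, were slightly lower in Luohan No.2. They had 544.3 and 5455.0 there, against 652.4 and 5840.4 in Chinese Spring. All 8 genes of the seed storage list stayed at or below 15.6 in Luohan No.2 water roots and 26.2 in Chinese Spring water roots. ALP, an avenin-like protein, was left off this list, which was made by hand. By its only member probe set, Ta.27777.1.S1_at, ALP had 2021.8 in Luohan No.2, against 1343.9 in Chinese Spring in water.

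Most transcripts had nearly the same signal in the 2 cultivars. Of the 15068 members, 12766 (84.7%) lay within 2-fold and 8541 (56.7%) within 1.41-fold. The median log2 difference was -0.006, the quartiles were -0.44 and 0.43, and the 5th and 95th percentiles were -1.21 and 1.28. The log2 signals of the water arrays correlated at r = 0.842 across members, which share both arrays and are not independent replicates. The 10 brightest members were TaAffx.115437.1.A1_s_at, Ta.1532.1.S1_a_at, both Ta.24639.1 probe sets, Ta.24977.1.S1_x_at, Ta.28783.1.S1_x_at, Ta.28304.1.S1_x_at, Ta.23044.1.A1_s_at, Ta.14126.1.S1_at and Ta.2592.2.S1_s_at. All were within 2-fold, between -0.18 and 0.45 on the log2 scale. They were picked by their mean signal on the same 2 arrays, which favours probe sets bright on both. Their closeness therefore says nothing about the other members.

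At least 2-fold higher in Luohan No.2 were 1200 members (7.96%), and 1102 (7.31%) were at least 2-fold lower. Over all 61115 probe sets these shares were 3.18% and 2.98%, where most dim probe sets are held together by the floor. At 4-fold there were 330 members higher and 277 lower, or 0.54% and 0.453% of all probe sets. Each probe set 4-fold apart is a member by construction, since 4 times the floor is 100. At 16-fold 47 members were higher in Luohan No.2 and 30 lower, and at 32-fold 16 were higher and 8 lower. The split between the directions depends on the scaling: with the quantile step 52.1% of the 2-fold differences were higher in Luohan No.2, whereas with each array scaled to a common median it was 91.5%, and the median of the members was then 0.642. The deposited medians that this scaling sets equal, 13.5 in Luohan No.2 and 20.3 in Chinese Spring, both lie under the floor.

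**Figure D1:**
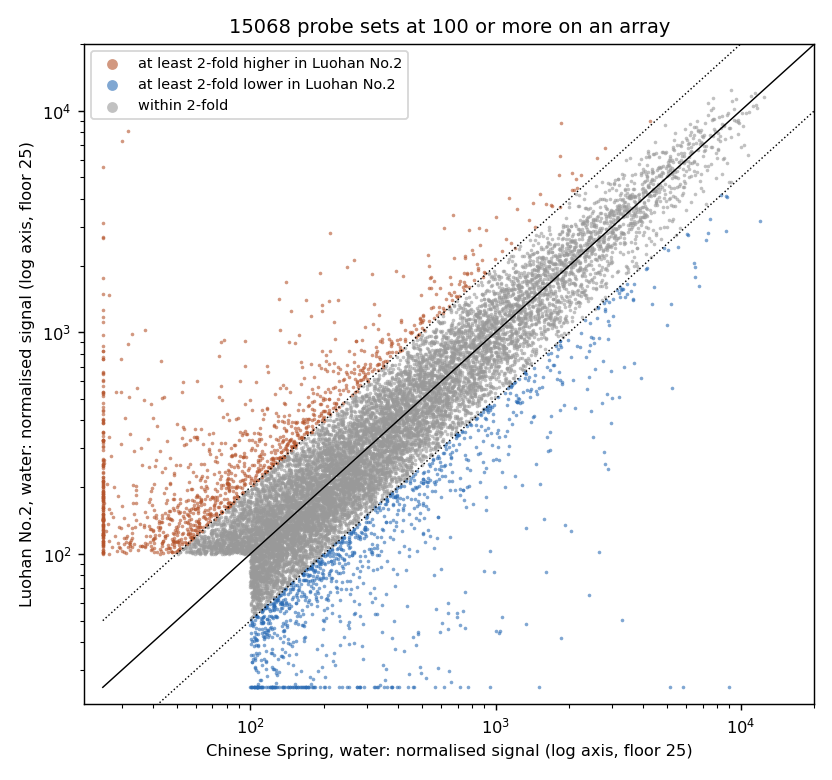
Normalised signal of each member on the Luohan No.2 water array (vertical) and the Chinese Spring water array (horizontal), both on log axes with signals under 25 drawn at 25; the solid line marks equality and the dotted lines 2-fold. Of 15068 probe sets, 1200 lie above the upper dotted line and 1102 below the lower one, and the points along the left and lower edges are those under 25 in Chinese Spring (171) and in Luohan No.2 (112).

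The share past 2-fold was smaller among the brightest members on the Luohan No.2 side and varied less on the other. Among members whose brighter array gave 100 to 200, 9.04% were higher in Luohan No.2 by 2-fold or more and 8.21% lower. Between 500 and 2000 the shares were 7.32% and 7.13%. Above 2000, 50 of 1256 (3.98%) were higher and 90 (7.17%) lower in Luohan No.2. Just inside the signal limit, Ta.12659.1.S1_at had 93.0 in Luohan No.2, against 100 in Chinese Spring, and Ta.26131.1.S1_at had 100 and 8.9. Just outside it, TaAffx.803.1.S1_at had 89.7 in Luohan No.2, against 99.9 in Chinese Spring.

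Some transcripts were detected well in 1 cultivar and hardly in the other. The signal was under 25 in Chinese Spring but at least 100 in Luohan No.2 for 171 members, and under 25 in Luohan No.2 but at least 100 in Chinese Spring for 112. On the PEG arrays the dim side was again under 25 for 114 of the 171 and for 93 of the 112. Nearly all of the most extreme members have no gene entry in the annotation: of the 77 members at least 16-fold apart, which came from 65 sequence clusters, 2 had one. They are therefore given by probe set, with no function.

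Among the members far higher in Luohan No.2, where a bound set by the floor cannot be ranked against a measured fold, was Ta.24639.2.S1_at, with a signal of 8092.5 in Luohan No.2, against 31.8 in Chinese Spring in water, a 254-fold difference, and 7898.2 and 22 in PEG. Ta.18957.1.S1_at had 7332.9 in Luohan No.2, against 30.1 in Chinese Spring in water, and 7510.1 and 29.5 in PEG, a 244-fold and a 255-fold difference. Its partner Ta.18957.1.S1_x_at had 5569.1 in Luohan No.2, against 16.8 in Chinese Spring in water, at least 223-fold. On these probe sets Luohan No.2 was near the top of the signal range in both conditions while Chinese Spring stayed near the floor. Ta.28347.1.S1_s_at had 3121.7 in Luohan No.2, against 1.3 in Chinese Spring in water, at least 125-fold, and 2693.5 and 5.8 in PEG. Ta.28251.1.S1_at had 2695.2 in Luohan No.2, against 1.9 in Chinese Spring in water, at least 108-fold, and 3320.7 and 5.3 in PEG. Ta.7509.3.S1_at, Ta.19558.1.S1_at and Ta.28135.1.S1_at were 55.9-fold to at least 70.0-fold higher in Luohan No.2 in water, and at least 37.9-fold to at least 69.8-fold higher in PEG. Ta.28289.1.S1_a_at stood apart from these, since its signal of 2653.9 on the Luohan No.2 water array was only 397.6 on the Luohan No.2 PEG array, against 8.4 and 30.6 in Chinese Spring. Its partner Ta.28289.1.S1_x_at had 1261.0 and 116.1 in Luohan No.2 in water and PEG, against 0.7 and 14.3 in Chinese Spring.

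Differences of this size also ran the other way. TaAffx.113846.1.S1_s_at had a signal of 10.9 in Luohan No.2, against 8973.6 in Chinese Spring in water, lower by at least 359-fold, and 1.9 and 8450.4 in PEG. Both probe sets of Ta.2895 showed the same contrast: Ta.2895.1.S1_x_at had 9.3 in Luohan No.2, against 5832.4 in Chinese Spring in water, and Ta.2895.1.S1_at had 10.4 and 5127.7. The bounds on how far Luohan No.2 lay below were 233-fold and 205-fold in water, and 236-fold and 184-fold in PEG. In Ta.7000 the Luohan No.2 signal was low but above the floor, at 50.4 for Ta.7000.1.A1_at and 65.1 for Ta.7000.1.A1_x_at, against 3289.6 and 2413.1 in Chinese Spring. Ta.28803.1.A1_at had 41.7 in Luohan No.2, against 1857.9 in Chinese Spring, a 44.6-fold difference. Ta.1912.1.S1_at and Ta.6515.1.S1_at had 2.0 and 1.6 in Luohan No.2 against 947.3 and 770.4 in Chinese Spring, at least 37.9-fold and at least 30.8-fold. All 20 of these largest differences among probe sets with no gene entry ran the same way on the PEG arrays.

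**Figure D2:**
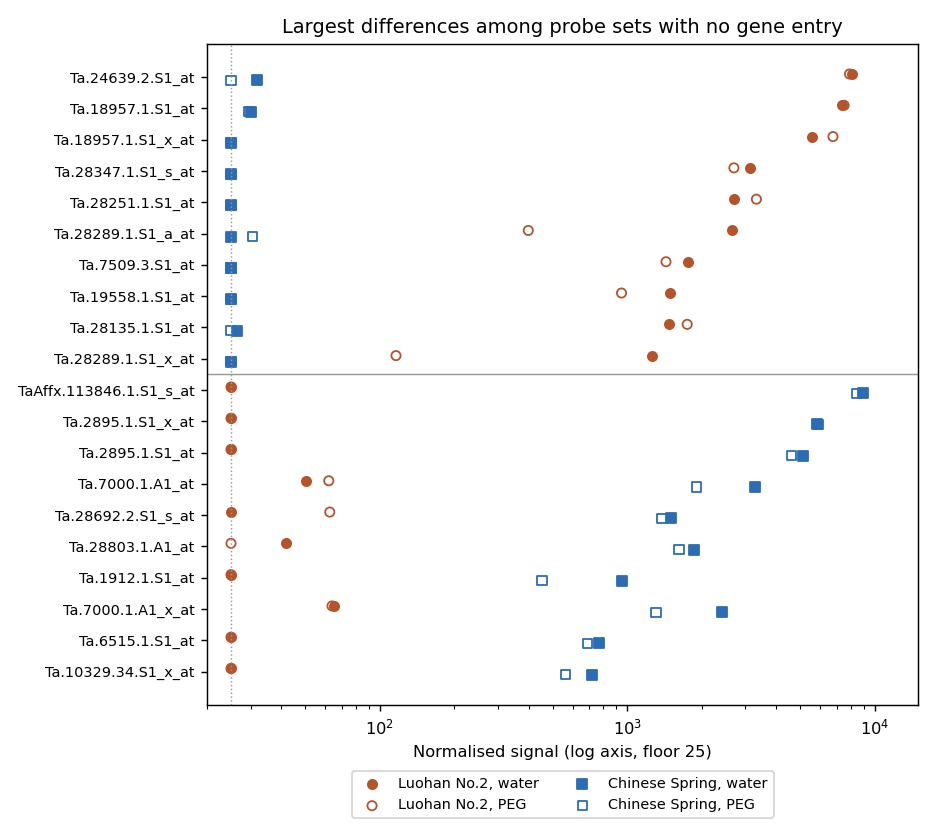
Normalised signal (log axis, signals under 25 drawn at the dotted line) of the 10 most positive and the 10 most negative members with no gene entry, on each of the 4 arrays; circles are Luohan No.2, squares Chinese Spring, filled for water and open for PEG. In each row both arrays of 1 cultivar lie to the right of both arrays of the other, and the largest gap between conditions is in the 2 Ta.28289 probe sets.

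Most of the large cultivar differences in water were also 2-fold or more on the PEG arrays. The PEG pair shares no array with the water pair, but the plants had been treated, so a difference may also change with PEG. Of the 2302 members at least 2-fold apart in water, 878 (38.1%) were at least 2-fold apart the same way in PEG and 97 the opposite way. Over all 15068 members, 8.86% were higher in Luohan No.2 in PEG by 2-fold or more and 8.53% lower. Over all 61115 probe sets, most of them held together by the floor, the shares were 3.66% and 3.87%. Of the 607 members 4-fold apart in water, 426 (70.2%) passed 2-fold the same way in PEG, and 5 the opposite way. Of the 202 members 8-fold apart it was 180 (89.1%), of the 77 members 16-fold apart 75 (97.4%), and of the 24 members 32-fold apart all 24. These shares hold the PEG limit at 2-fold, which a large difference passes more easily. At the same fold in both conditions, 50% of the 4-fold higher and 48.4% of the 4-fold lower members recurred, 50.4% and 67.8% at 8-fold, and 46.8% and 60.0% at 16-fold. Of all members, 2.0% were 4-fold higher and 1.85% 4-fold lower in PEG, 0.743% and 0.644% at 8-fold, and 0.259% and 0.232% at 16-fold. Of the members past 2-fold in water, 72.3% of those higher and 76.0% of those lower in Luohan No.2 kept their sign in PEG. The median log2 difference in PEG over all members was 0.037. Brightness made little difference to the share 2-fold apart the same way in PEG, which was 36.7% for 2-fold differences among members at 100 to 200 and 36.4% above 2000. Across the 15068 members the log2 differences in water and PEG correlated at r = 0.50 (Spearman 0.27), given as a description of probe sets that share arrays.

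**Figure D3:**
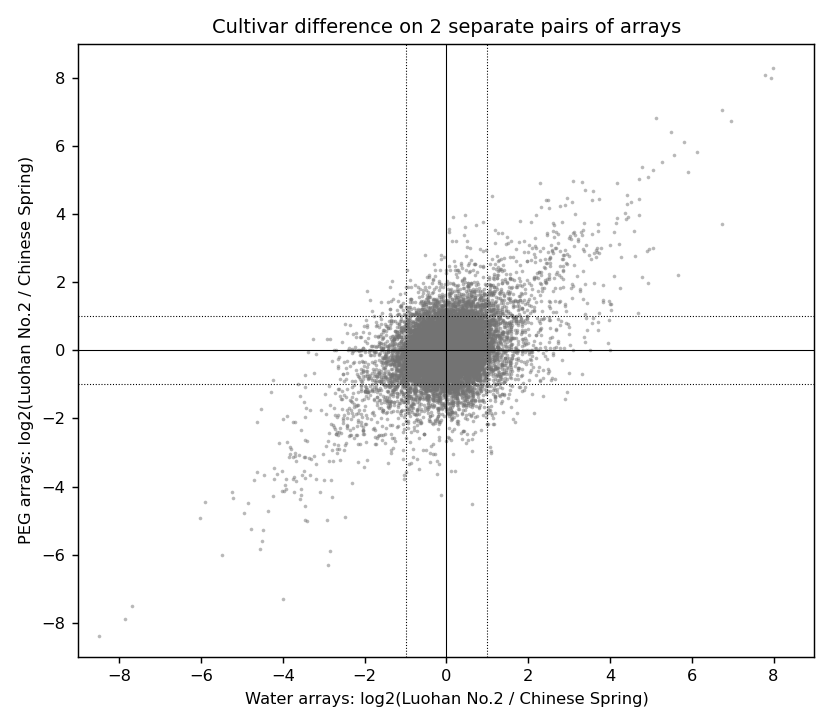
Log2 difference between Luohan No.2 and Chinese Spring for each of the 15068 members, on the water arrays (horizontal) and on the PEG arrays (vertical); dotted lines mark 2-fold. The arms running to the upper right and lower left hold the large differences that recur in PEG. Over all 15068 members the SD is 0.89 in water and 0.91 in PEG.

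A smaller set of transcripts differed widely in water and hardly in PEG. Of the 330 members 4-fold higher in Luohan No.2 in water, 51 had the cultivars within 1.41-fold on the PEG arrays, and of the 277 lower, 45. Of these, 20 and 10 still reached a signal of 100 on a PEG array, and 6 and 11 were under 25 on both PEG arrays. In water 56.7% of all members were within 1.41-fold, and the share of all members in PEG was not counted. With 1 array a side, whether such differences depend on PEG was not tested. Ta.9671.2.S1_x_at had a signal of 264.4 in Luohan No.2, against 0.9 in Chinese Spring in water, but 459.2 and 389.1 in PEG. Ta.19612.1.S1_at and Ta.19612.1.S1_x_at had 508.6 and 390.1 in Luohan No.2 against 44.5 and 24.4 in Chinese Spring in water, and all 4 of their PEG signals were at most 29.1. In the other direction, Ta.1221.1.A1_at had 288.2 in Luohan No.2, against 2780.7 in Chinese Spring in water, and 88.0 and 70.0 in PEG. Likewise Ta.10583.1.A1_at had 390.9 in Luohan No.2, against 2959.9 in Chinese Spring in water, and 68.3 and 54.6 in PEG. These probe sets were picked after their values were seen.

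Probe sets of the same sequence cluster give a partial measure of probe noise, since they share the arrays and the RNA. Among members above 25 on both arrays, the SD of the log2 difference was 0.44 within a cluster (6855 probe sets in 2617 clusters) and 0.32 within a single sequence of a cluster, against 0.77 over all 14785 such members. A 2-fold difference is 1 on this scale. Of 2665 clusters with several members, 96 had every member higher in Luohan No.2 by 2-fold or more, and in 88 every member was lower by that much. In 343 clusters at least 1 member was 2-fold higher and in 270 at least 1 was 2-fold lower. Only 4 clusters held both.

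Members made from the same sequence mostly moved together, and those from other sequences of the cluster less uniformly. Each member is counted by itself, so a pair with both past 4-fold counts once for each of them. Such members share the same arrays and are not independent cases. Of the members 4-fold higher in Luohan No.2, 84 had another member of the same sequence, and for 78 of them this was also at least 2-fold higher. For 94 there was a member from another sequence of the cluster, and for 67 such a one was at least 2-fold higher while for 27 all were within 2-fold. Of the members 4-fold lower in Luohan No.2, 57 had a same-sequence partner and 52 of these had one at least 2-fold lower. With other sequences of the cluster it was 54 of 76, with 21 where all others were within 2-fold and 5 where another was at least 2-fold higher.

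The most extreme transcripts include both patterns. All 4 members of Ta.18957 were higher in Luohan No.2, by log2 differences of 4.01 to 7.93, and all 3 of Ta.28289 by 3.83 to 6.73. In Ta.24639, by contrast, Ta.24639.1.S1_x_at was among the 10 brightest members at 11630.8 in Luohan No.2, against 11043.6 in Chinese Spring, and Ta.24639.1.S1_a_at had 11254.2 and 9547.1. Its other sequence gave 8813.5 and 1845.8 with Ta.24639.2.S1_x_at, whose name marks possible cross-hybridisation, and the 254-fold difference above with Ta.24639.2.S1_at. Ta.7509.1.S1_at had 2056.0 in Luohan No.2, against 2209.9 in Chinese Spring, beside the difference of at least 70.0-fold of Ta.7509.3.S1_at. Similarly Ta.28692.2.S1_s_at, at 24.3 in Luohan No.2, against 1503.9 in Chinese Spring, had 4 cluster partners with log2 differences between -0.98 and -0.15.

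Ta.10329 shows this on a larger scale, with 37 members. Their median log2 difference was -0.02 and 31 were within 2-fold, but 5 were lower in Luohan No.2 by 2-fold or more and 1 was higher. Ta.10329.34.S1_x_at had 23.8 in Luohan No.2, against 719.6 in Chinese Spring in water and 17.0 and 561.9 in PEG. Ta.10329.16.S1_at had 54.0 in Luohan No.2, against 698.9 in Chinese Spring in water, and 83.1 and 667.2 in PEG. Ta.27457 also went both ways, with Ta.27457.7.S1_x_at at 6242.8 in Luohan No.2, against 1837.5 in Chinese Spring and Ta.27457.4.S1_x_at at 741.1 and 2754.0. Both directions recurred in PEG, at log2 differences of 1.18 and -1.19. Ta.5052 and Ta.9190 were the other 2 clusters with both directions in water, at signals of at most 145.9 on the water arrays.

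**Figure D4:**
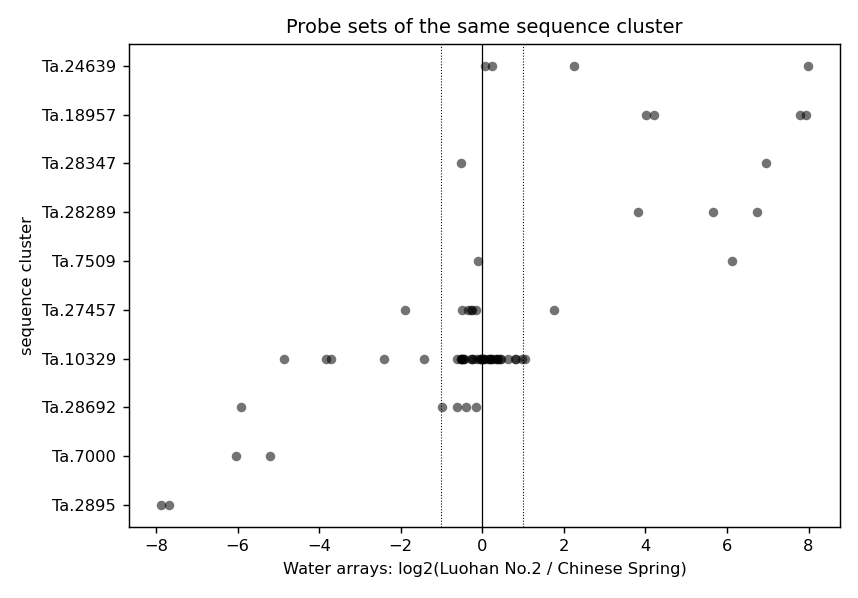
Log2 difference between Luohan No.2 and Chinese Spring in water for the members of 10 sequence clusters, 1 point a probe set; dotted lines mark 2-fold. In Ta.18957, Ta.28289, Ta.7000 and Ta.2895 every member lies on the same side, whereas Ta.24639, Ta.7509, Ta.28347, Ta.10329 and Ta.28692 combine members near 0 with extreme ones.

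Probe set names mark how specific the probes are: an ending in a, s or x before _at stands for probes shared within a gene family, by several transcripts or with unrelated ones. The 8788 members with a plain _at name had 8.22% higher in Luohan No.2 by 2-fold or more and 8.18% lower. Among the 2150 with an _a_at name the shares were 6.09% and 4.51%, and among the 2923 with an _x_at name 8.28% and 6.94%. Members with TaAffx names, a second series of probe sets on the array, were fewer (2532 of 29677) than those with Ta names (12536 of 31438). Of the TaAffx members 11.1% were higher in Luohan No.2 by 2-fold or more and 9.68% lower, against 7.34% and 6.84% of the Ta members.

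Gene names were few. A gene entry was paired with 624 members, of which 78 belonged to 48 genes with a name and 546 to 400 genes with a locus number only. For each named gene the brightest probe set is used. Of the 48, 38 were within 2-fold, 3 were higher in Luohan No.2 by 2-fold or more and 7 lower, with a median log2 difference of -0.18. Over all members 7.96% were higher and 7.31% lower by 2-fold or more. Of the named genes past 2-fold, only Hmgb3, PR5 and rbcl had 100 or more on both water arrays. The remaining 54 named genes on the array did not reach a signal of 100 in water, among them all 5 late embryogenesis abundant and related genes, all 8 storage genes and all 3 GA20ox1 genes. Of the 16 genes with several members, 13 had log2 differences that differed by less than 1 between probe sets, and Hmgb3, RPS29 and wcH2B-8 were the exceptions.

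Genes of photosynthesis and the plastid were lower in Luohan No.2. All 4 measured genes of 7 on the list were at least 2-fold lower. The filter kept petC, PsbP and PsbO only through the Chinese Spring array, where they were higher. With a signal of 100 required on both arrays, only rbcl was left, at a log2 difference of -1.39. The median log2 difference of the 4 was -1.73 in water and -1.55 in PEG, beside -0.18 and -0.16 over the 48 named genes. With each array scaled to a common median the water value was -1.35 over the same probe sets, and rbcl and PsbO lay within 2-fold. With the floor at 100, PsbP (-0.08) and PsbO (-0.46) lay within 2-fold. The gene petC, for the Rieske iron-sulphur protein of the cytochrome b6f complex, had a signal of 16.6 in Luohan No.2, against 291.9 in Chinese Spring in water, a log2 difference of at least 3.55 in favour of Chinese Spring, and 11.8 and 127.4 in PEG. PsbP and PsbO, subunits of the oxygen-evolving complex, had 22.5 and 54.0 in Luohan No.2, against 105.6 and 137.7 in Chinese Spring. The large Rubisco subunit gene rbcl had 2813.6 in Luohan No.2, against 7382.9 in Chinese Spring by Ta.24976.1.S1_x_at, and 2606.8 and 7250.4 by TaAffx.128414.1.A1_x_at. Both names mark possible cross-hybridisation, and the other 26 of its 28 probe sets were at most 76.4 on the water arrays.

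These genes are also the markers of green tissue used here. Of the 6 such genes on the array, 4 were members, and 4 were under 25 in Luohan No.2 in water against 1 in Chinese Spring. Without rbcl their signals summed to 100.6 in Luohan No.2, against 625.9 in Chinese Spring in water, and to 71.4 and 317.6 in PEG. With rbcl the sums were 2914.2 and 8008.8 in water. The part of green tissue among the roots in any other difference was not tested, and in bulk tissue fewer such cells and less RNA in each cannot be told apart.

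Defence genes went both ways. Of 8 on the list 6 were measured, with 2 higher in Luohan No.2 by 2-fold or more and 2 lower, and a median of -0.03 that became 0.54 over the same probe sets with each array scaled to a common median. TaGlu1a, a beta-glucosidase gene, had a signal of 277.9 in Luohan No.2, against 83.3 in Chinese Spring in water (log2 1.74), but 205.9 and 306.0 in PEG. PR5, a thaumatin-like pathogenesis-related protein, had 287.5 in Luohan No.2, against 121.1 in Chinese Spring in water (log2 1.25), and 430.6 and 93.9 in PEG. So PR5 was higher in Luohan No.2 on both pairs of arrays and TaGlu1a on the water pair alone, with no test of either. The xylanase inhibitor gene XIP-I had 798.2 in Luohan No.2, against 518.9 in Chinese Spring, within 2-fold.

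Of the 3 thionin genes, which encode small antimicrobial peptides, THI1.2 and THI1.1 were lower in Luohan No.2 in water, and THI1.3 was under 25 on all 4 arrays. THI1.2 had a signal of 52.2 in Luohan No.2, against 229.4 in Chinese Spring in water (log2 -2.14), and 72.8 and 125.8 in PEG. THI1.1 lay within 2-fold with each array scaled to a common median (-0.60) or with the floor at 100 (-0.86). It had 83.2 in Luohan No.2, against 181.7 in Chinese Spring in water (log2 -1.13), and 96.7 and 89.9 in PEG, so that its cultivars were apart in water and within 2-fold in PEG. Its other probe set had 20 in Luohan No.2, against 42.5 in Chinese Spring. Such homologous genes may share probes. Glc1, a glucanase gene, had 66.3 in Luohan No.2, against 106.5 in Chinese Spring in water, within 2-fold, and 258.1 and 699.6 in PEG.

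Chromatin genes were mostly alike, apart from Hmgb3. All 6 genes of this list were measured, with 1 at least 2-fold higher in Luohan No.2, none lower and a median of -0.06 that became 0.60 over the same probe sets with each array scaled to a common median. Hmgb3, a high mobility group protein that bends DNA, had 5223.4 in Luohan No.2, against 2056.1 in Chinese Spring in water by its brightest probe set (log2 1.35), and 1936.3 and 1510.9 in PEG. By the other, Ta.30768.3.S1_x_at, it had 2113.0 in Luohan No.2, against 265.1 in Chinese Spring in water (log2 2.99), and 1644.2 and 239.1 in PEG, so that only the second probe set held its difference in PEG. Both names mark possible cross-hybridisation. The 6 probe sets of histone gene H2A-9 lay between 0.01 and 0.43. Of the 7 probe sets of wcH2B-8, a histone H2B gene, 6 lay between -0.53 and 0.40 and Ta.7378.17.S1_x_at had 75.7 in Luohan No.2, against 255.1 in Chinese Spring (log2 -1.75).

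Genes of the cytoskeleton and of protein synthesis were close. Of 7 cytoskeletal genes, tubulins and a profilin, 0 passed 2-fold with the brightest probe set. All 7 were below 0 with a median of -0.23, which became 0.25 with each array scaled to a common median. The lowest, the beta-tubulin gene Tubb5, had 394.2 in Luohan No.2, against 703.7 in Chinese Spring (log2 -0.84). A further Tubb5 probe set, Ta.214.2.A1_at, reached -1.03. The alpha-tubulin probe set Ta.723.1.S1_at (TUBA) had 887.9 in Luohan No.2, against 1039.0 in Chinese Spring in water, but 37.3 and 459.0 in PEG, where the Luohan No.2 array also had the lowest 5' to 3' control ratios. Likewise 0 of 5 measured translation genes of 6 passed 2-fold with the brightest probe set, with a median of -0.09 that became 0.64 with median scaling. The elongation factor gene TEF1 had 6296.9 in Luohan No.2, against 10664.5 in Chinese Spring (log2 -0.76), and the cap-binding factor eIF4E had 1629.8 and 1176.4 (log2 0.47). RPS29, a ribosomal protein gene, had 182.2 in Luohan No.2, against 147.6 in Chinese Spring by its brighter probe set and 16.2 and 109.8 by Ta.30687.2.S1_x_at.

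Other named genes were within 2-fold, with 1 exception. That was Pgk-1, a phosphoglycerate kinase gene, at 99.1 in Luohan No.2, against 204.9 in Chinese Spring in water (log2 -1.05), and 125.6 and 128.7 in PEG. Its log2 difference was -0.50 with each array scaled to a common median, and the filter kept this gene only through the Chinese Spring array. NCBP, a cap-binding protein, had 451.0 in Luohan No.2, against 245.3 in Chinese Spring (log2 0.88). ALP, an avenin-like protein, had a log2 difference of 0.59 by Ta.27777.1.S1_at, while its other probe sets were under 25 on all 4 arrays. H2A-2, the glutathione transferase GSTZ1, the adenine salvage enzyme APT1, TaDMAS1, TCTP and the ubiquitin-conjugating enzyme UBC1 lay between 0.04 and 0.47. A second probe set of GSTZ1, Ta.237.1.S1_at, stood at 1.0, with 398.2 in Luohan No.2, against 199.6 in Chinese Spring. On the side of Chinese Spring, the vacuolar calcium channel gene TaTPC1, the tubulin Tubb4, TSA and cys1 lay between -0.51 and -0.49, and all 4 were above 0 with each array scaled to a common median.

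**Figure D5:**
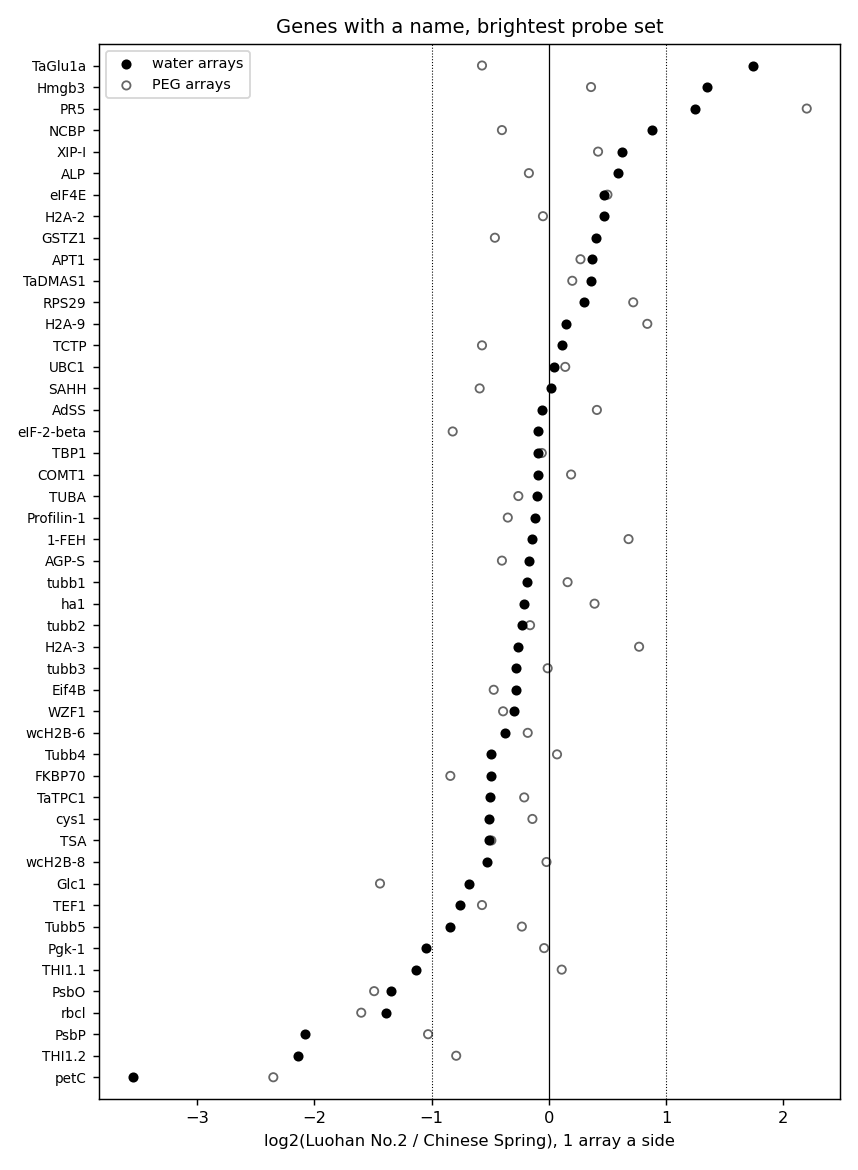
Log2 difference between Luohan No.2 and Chinese Spring for the 48 named genes among the members, by the brightest probe set of each; filled points are the water arrays, open points the PEG arrays, and dotted lines mark 2-fold. TaGlu1a, Hmgb3 and PR5 lie above 1 in water and 7 genes, from Pgk-1 to petC, below -1, while all 4 photosynthesis genes are also below -1 in PEG.

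Among the 546 members with a locus number only, 31 were higher in Luohan No.2 by 2-fold or more and 46 lower, with a median of 0.03. Over all 15068 members 7.96% were higher and 7.31% lower, and over all 61115 probe sets 3.18% and 2.98%. Whether the locus-number members depart from these shares was not tested. LOC542847 was higher in Luohan No.2 in water by both its probe sets, 5.81-fold and 6.89-fold, with 1829.4 in Luohan No.2, against 314.6 in Chinese Spring by Ta.2882.1.S1_s_at and 511.9 and 74.2 by Ta.2882.1.S1_at. In PEG the same probe sets had 695.3 and 661.6, and 167.3 and 159.2, within 1.05-fold. LOC542993 went the same way by Ta.28219.1.A1_at, at 266.3 in Luohan No.2, against 41.3 in Chinese Spring in water and 245.5 and 228.3 in PEG. Its member Ta.3679.1.S1_x_at had 495.0 in Luohan No.2, against 99.3 in Chinese Spring in water, and 451.0 and 282.8 in PEG. LOC543438 had 3393.6 in Luohan No.2, against 669.0 in Chinese Spring in water, and 5648.2 and 1695.8 in PEG. LOC780661 had 144.3 in Luohan No.2, against 17.7 in Chinese Spring by Ta.25111.1.S1_x_at, but its 3 other members lay between -0.40 and 0.19.

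Among those lower in Luohan No.2 were LOC543448 and LOC542898. LOC543448 had 46.4 in Luohan No.2, against 749.0 in Chinese Spring in water (16.2-fold) and 38.8 and 448.4 in PEG, and its dimmer probe set had 36.8 and 93.1 in water. LOC542898 had 126.6 in Luohan No.2, against 2031.4 in Chinese Spring in water (16-fold), and 39.5 and 6209.9 in PEG, a 157-fold difference, while its other 2 probe sets were under 25 on all 4 arrays. LOC606363 and LOC543016 had 54.0 and 9.6 in Luohan No.2 against 637.0 and 172.1 in Chinese Spring, and both differences recurred in PEG. LOC542790 did not recur, with 205.4 in Luohan No.2, against 1281.6 in Chinese Spring in water and 77.2 and 92.6 in PEG.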

How the data were processed

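Root RNA was hybridised to Affymetrix wheat arrays in 1 colour, with 1 array in each of 4 groups taken from the labels. The authors deposited 1 intensity per probe set and array on a linear scale, computed by MAS5 per the submitters' processing notes. The sources used here do not give its version. Dim probe sets are noisy after MAS5. Of 61290 probe sets, 111 AFFX and 64 RPTR controls were set aside. The water arrays were quantile-normalised together, and so were the PEG arrays. Signals were floored at 25 and log2 differences taken (numpy 2.4.6, pandas 2.3.3), and the steps were tested on simulated data. The number of arrays limits the precision.

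Genes came from the platform annotation, updated by gene identifier in the RefSeq table of IWGSC CS RefSeq v2.1: 770 of 771 genes matched, and 102 had a name, as symbol or synonym. Named in the text are the 15 most positive and 15 most negative named genes, the 10 most positive and 10 most negative members with no gene entry, the 5 and 5 with a locus number only, and the 10 brightest. Other items were picked after their values were seen. Members and gene lists were chosen with earlier results of these data known. Where RefSeq gives a locus number as symbol, a synonym was chosen as the name, and genes were placed in the lists by hand, after the values were at hand. A planned count by chromosome was not made, because the deposited files name no genome build to set against that table's coordinates. Alternatives were other scalings, floors and filters, a pseudocount, probe set classes and the median probe set of a gene.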

Additional observations from a re-analysis of the deposited data

Results flagged for a closer look

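In 65 members the cultivars were at least 2-fold apart in opposite directions on the water and PEG arrays, higher in Luohan No.2 in water and lower in PEG, and in 32 members the reverse. These are 5.42% of the members 2-fold higher in water and 2.9% of those 2-fold lower, below the 8.53% and 8.86% of all members that were 2-fold lower and higher in PEG. With 1 array a group these differences between conditions were not tested. All of these members were read on the Luohan No.2 PEG array, which had the lowest 5' to 3' control ratios. The part of RNA integrity in them was not tested. Ta.5645.2.S1_a_at was the most positive of them in water, with a signal of 387.4 in Luohan No.2, against 50 in Chinese Spring in water, and 335.5 and 774.4 in PEG. Ta.3390.1.A1_at had 110.4 in Luohan No.2, against 17.6 in Chinese Spring in water, and 268.8 and 961.5 in PEG. In the other direction Ta.28187.1.S1_at had 30.4 in Luohan No.2, against 116.0 in Chinese Spring in water, and 202.6 and 60.4 in PEG. Both probe sets of LOC606352 among them ran that way: Ta.3729.1.A1_at had 101.7 in Luohan No.2, against 310.5 in Chinese Spring in water, and 360.4 and 135.1 in PEG, and Ta.3749.1.S1_s_at had 166.3 and 422.8, and 448.1 and 223.9.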

How the results depend on the processing

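Without the quantile step, with that step over 4 arrays, with the floor at 10 and with the filter on deposited signals, all counts, shares and the median stayed close to the values reported. With each array scaled to a common median, 4282 members were higher in Luohan No.2 by 2-fold or more and 400 lower, 659 and 166 at 4-fold, the median was 0.642, and 45.2% of the 2-fold lower members were so in PEG; XIP-I, ALP, NCBP, eIF4E, GSTZ1 and APT1 then passed 2-fold and Pgk-1, THI1.1, PsbO (-0.88) and rbcl (-0.89) did not, and Glc1 and PsbP were under 100. With the genes and probe sets kept as reported, an alternative added after seeing the data, the same 6 passed and the same 4 did not, and the medians were -1.35 for photosynthesis, 0.54 for defence and 0.60 for chromatin, against -0.89, 1.28 and 0.90 over the genes then measured. Counts of 2-fold higher and lower members were 743 and 687 with the floor at 100 or the filter at 200, 1942 and 1819 with the filter at 50, 489 and 491 with 100 on both arrays, and 722 and 719 without names that mark cross-hybridisation. At 4-fold they were 203 and 171 with the floor at 50 or the filter at 200, 110 and 107 with the floor at 100, and 38 and 54 with 100 on both arrays. The shares of 2-fold higher and lower members that were so in PEG, 39.4% and 36.8% as reported, were 35.5% and 31.4% with the floor at 50, 35.7% and 27.5% with the floor at 100, 32.4% and 30.8% with the filter at 50, and 32.7% and 23.4% with 100 on both arrays. For higher members the share was 42.9% with the filter at 200 and 47.0% without cross-hybridising names. With the floor at 100, PsbP (-0.08), PsbO (-0.46) and THI1.1 (-0.86) were within 2-fold, and with the pseudocount of 16 Pgk-1 was (-0.94). The floor, filters and probe classes change which or how many probe sets count. Median scaling sets equal the deposited medians of the water arrays, 13.5 for Luohan No.2 and 20.3 for Chinese Spring, both under 25. It shifts every probe set of an array by the same factor. Why these medians differed was not tested. No paired analysis was possible because each group has 1 array and no result comes from a test.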
